A study of Nicotiana tabacum with 78 samples.

Results

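The histone and nucleosome genes of tobacco (Nicotiana tabacum) were taken as every gene of the deposited root expression table whose Swiss-Prot or tomato (Solyc) description contains the word histone or nucleosome. This gave 48 genes of the 2075 in the table, namely 3 H1, 7 H2A, 11 H2B, 14 H3 and 13 H4 genes. All 48 are named as linker or core histones, and none is named as a histone-modifying enzyme or a histone chaperone. Of the 48, 46 carry a Swiss-Prot name, and the class of the other 2, NITAB075309 (H1) and NITAB081670 (H2B), comes from the tomato name alone.

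RNA-seq was carried out on leaves and roots of the burley cultivar TN90 and of 3 transgenic TN90 lines, PMT1, PMT2 and PMT3, in which putrescine N-methyltransferase, the enzyme that commits putrescine to nicotine, is suppressed by RNA interference. The RNAi construct was introduced with Agrobacterium and is driven by the constitutive 35S promoter, so it is not limited to roots, and TN90 is the untransformed control. Topped plants had their top cut off at flowering and untopped plants kept it, and full-grown leaves and roots were collected the following day. The 4 genotypes, 2 tissues and 2 treatments make 16 groups of 4 or 5 labelled samples each, 77 samples in all, and 1 further sample could not be placed.

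Histones package DNA: H2A-H2B dimers and an H3-H4 tetramer form the core of the nucleosome, and linker histone H1 binds where the DNA enters and leaves it. Most histone protein is made in S phase, when new DNA has to be packaged, so histone transcripts are abundant in dividing tissue such as meristems and scarce in full-grown tissue. The genes occur in many near-identical copies, and in plants, unlike in animals, their transcripts are polyadenylated.

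Values are RPKM, read counts scaled to the length of the gene and the number of mapped reads, and the table holds 1 value per gene and group, the authors' mean. Values per plant were not used here, only means, so no SD, n or test can be given for any level or fold, and a difference between 2 groups cannot be set against the spread between plants. Folds were taken on log2(RPKM + 0.1), and a gene was counted as higher or lower when it differed at least 2-fold and reached at least 1 RPKM in either group. The 2075 genes are those that the authors had called in their root comparisons, of topped with untopped PMT lines and of PMT lines with TN90. Each count is therefore read beside the share of all 2075 genes that meet the same criterion. A histone gene not called there is absent, so the members need not stand for all histone genes of tobacco. The libraries behind the means held 22078414 to 150334394 reads in roots and 16299684 to 517291516 in leaves.

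The names limit what can be told apart within a class. All 14 H3 genes have the same best Swiss-Prot match, tobacco histone H3.2, all 13 H4 genes match 1 H4 protein of another plant, and 8 of the 11 H2B genes match tobacco H2B. Reads were allowed up to 10 positions in the genome, so reads of near-identical copies can be shared between them, and the level of a single H3 or H4 gene is less certain than the sum of its class. Positions and sequences of these genes were not used here.

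In roots the members followed nearly 1 order of the 8 groups. Their median was 16.9 RPKM in topped PMT2, 14.8 in topped TN90, 14.0 in untopped PMT2, 12.6 in topped PMT1, 7.21 in untopped PMT1, 6.70 in topped PMT3, 4.28 in untopped TN90 and 3.63 in untopped PMT3. Untopped PMT2 roots therefore stood with the topped roots of PMT1 and TN90, and topped PMT3 roots stood with the untopped roots of PMT1. Of neighbours in this order, the clearest steps were from topped to untopped PMT1 and from topped PMT3 to untopped TN90, each with 47 of 48 members higher in the first group. The least clear was untopped PMT1 over topped PMT3, where 33 of 48 members were higher. The members with the highest mean over the root groups were the H4 gene NITAB032113 and the H2A gene NITAB032123.

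**Figure D1:**
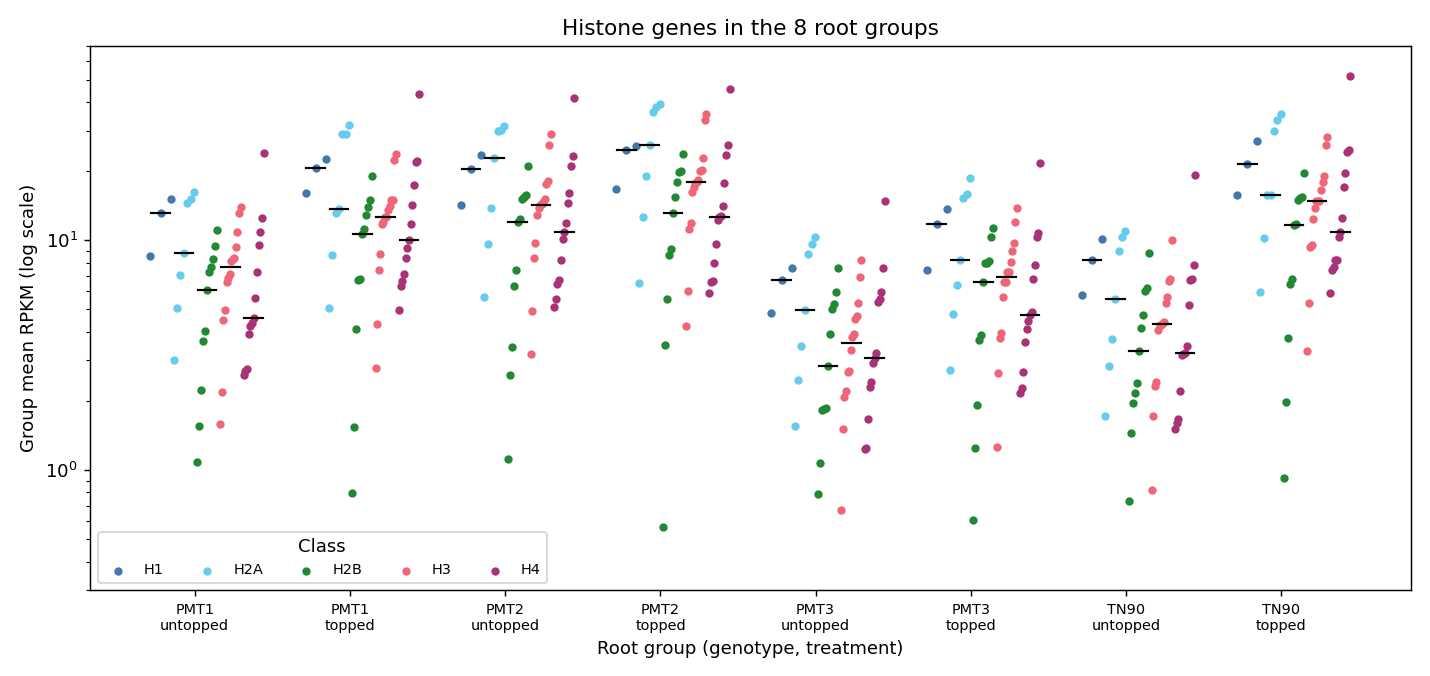
Level of each histone gene in the 8 root groups (RPKM, log scale). A point is 1 gene's group mean, colours give the class and black bars the class median. The medians of all 48 genes run from 3.63 RPKM in untopped PMT3 to 16.9 in topped PMT2, and the low H2B point is NITAB081670.

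**Figure D2:**
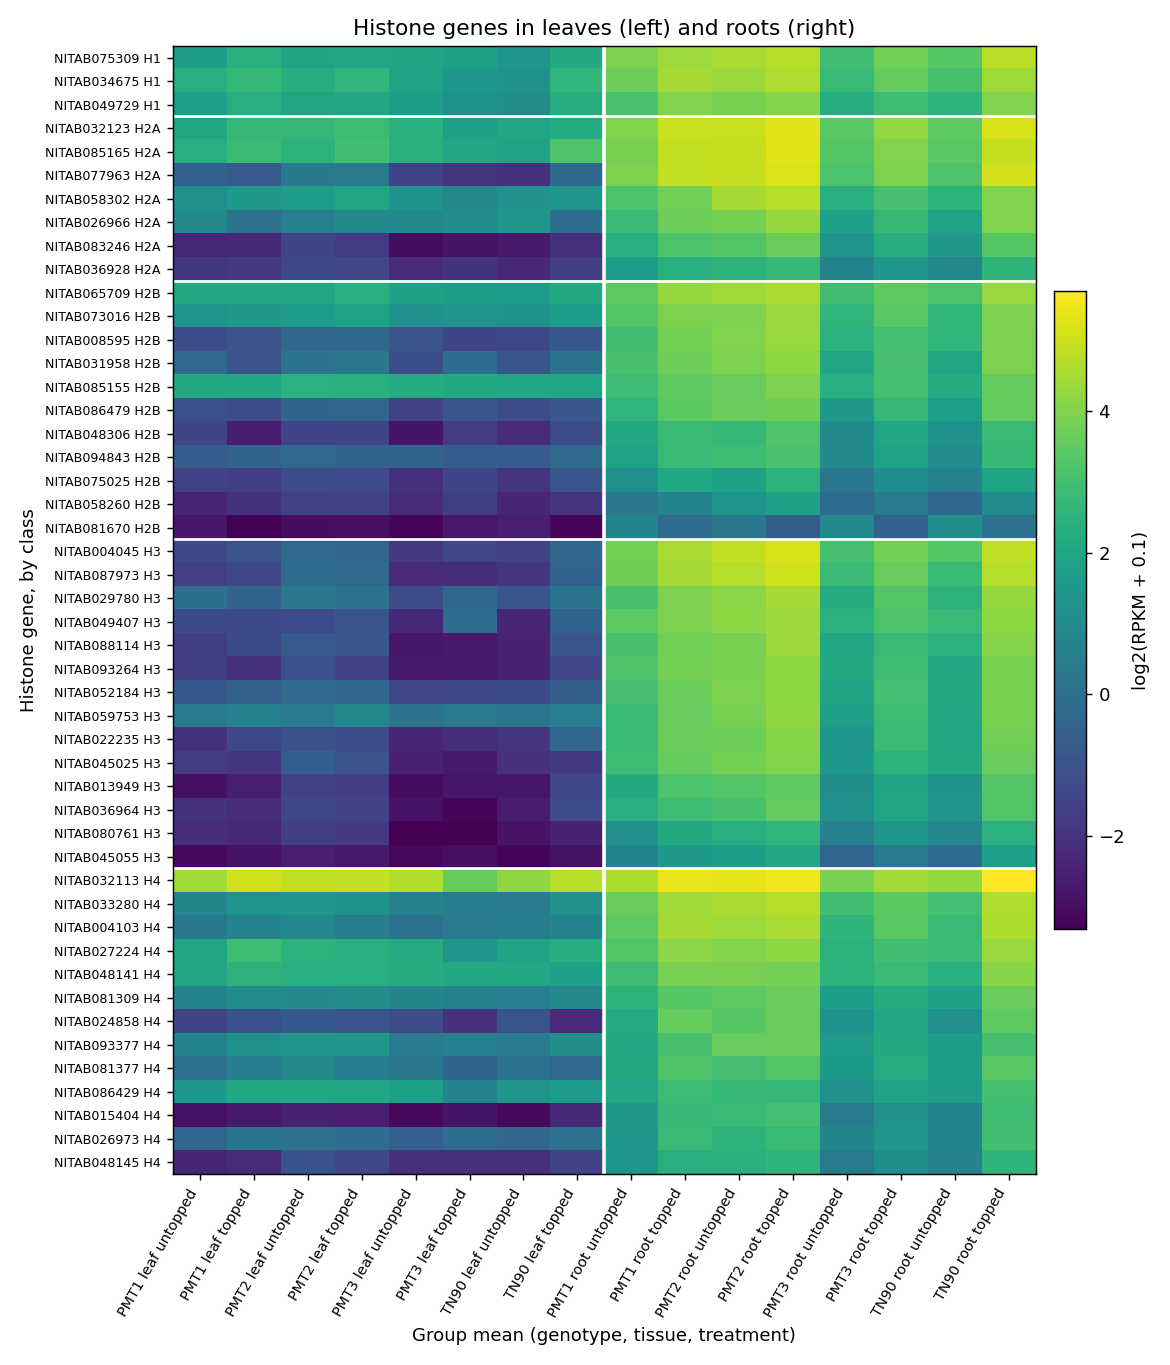
All 48 histone genes (rows, by class and then by mean root level) in the 8 leaf and 8 root groups (columns), as log2(RPKM + 0.1) of the group means. Roots are brighter than leaves for most genes, and untopped PMT3 and untopped TN90 are the darkest root columns.

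Nearly all members were higher in topped than in untopped roots, and the ratio of group means was largest in TN90 and smallest in PMT2. Topped against untopped TN90 was not among the comparisons that selected the genes. Both TN90 root groups did enter that selection, through comparisons with PMT lines at the same and at the other treatment. The TN90 ratios are therefore not free of it. Whether the TN90 ratios exceed the spread between TN90 plants cannot be judged from the means. In the authors' own test, fewer genes differed between topped and untopped roots in TN90 than in any PMT line. In TN90, 47 of 48 members were at least 2-fold higher after topping, beside 45.6% of all genes of the table. The exception, NITAB081670, was at least 2-fold lower, as were 6.07% of all genes. In PMT3, 8 members were at least 2-fold higher, beside 26.5% of all genes, and in PMT1 5 were, beside 21.2%. In PMT2 none was, beside 12.2%. No member was at least 2-fold higher in all 4 genotypes, beside 7.95% of all genes.

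By direction alone the 4 genotypes were alike. Topped roots were above untopped roots in all 4 genotypes for 46 of 48 members, beside 39.6% of all genes. The exceptions were NITAB081670, lower in all 4 as were 12.9% of all genes, and the H4 gene NITAB048141, at 14.5 RPKM in untopped and 14.1 in topped PMT2 roots. The fold was largest in TN90 for 47 members, beside 45.5% of all genes, and smallest in PMT2 for 47, beside 43.9%. The median log2 difference of the members was 1.67 in TN90, against 0.82 for PMT1, 0.25 for PMT2 and 0.77 for PMT3. Over all genes it was 0.91 in TN90, against 0.43 for PMT1, 0.13 for PMT2 and 0.39 for PMT3. By the median the members thus stood above the table in each genotype. By the count at 2-fold they stood below it in PMT1, PMT2 and PMT3.

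The table as a whole was thus also higher after topping. With each log2 difference centred on the median of all 2075 genes, 6 members (12.5%) were at least 2-fold higher in topped TN90 roots, beside 11.2% of all genes. None was in PMT1, PMT2 or PMT3, beside 10.7%, 9.73% and 16.3% of all genes. The 2-fold line cut through the members in PMT1 and PMT3. In PMT1 the nearest genes on its 2 sides were NITAB004103 (H4) at 2.03-fold and NITAB085165 (H2A) at 1.99-fold. In PMT3 they were NITAB048306 at 2.05-fold and NITAB094843 at 1.95-fold, both H2B. In TN90 the lowest called member was NITAB065709 (H2B) at 2.21-fold. At 1.5-fold, 43 members were higher in PMT1, beside 43.8% of all genes. In PMT3 39 were, beside 40.2%, and in PMT2 1 was, beside 20.8%.

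**Figure D3:**
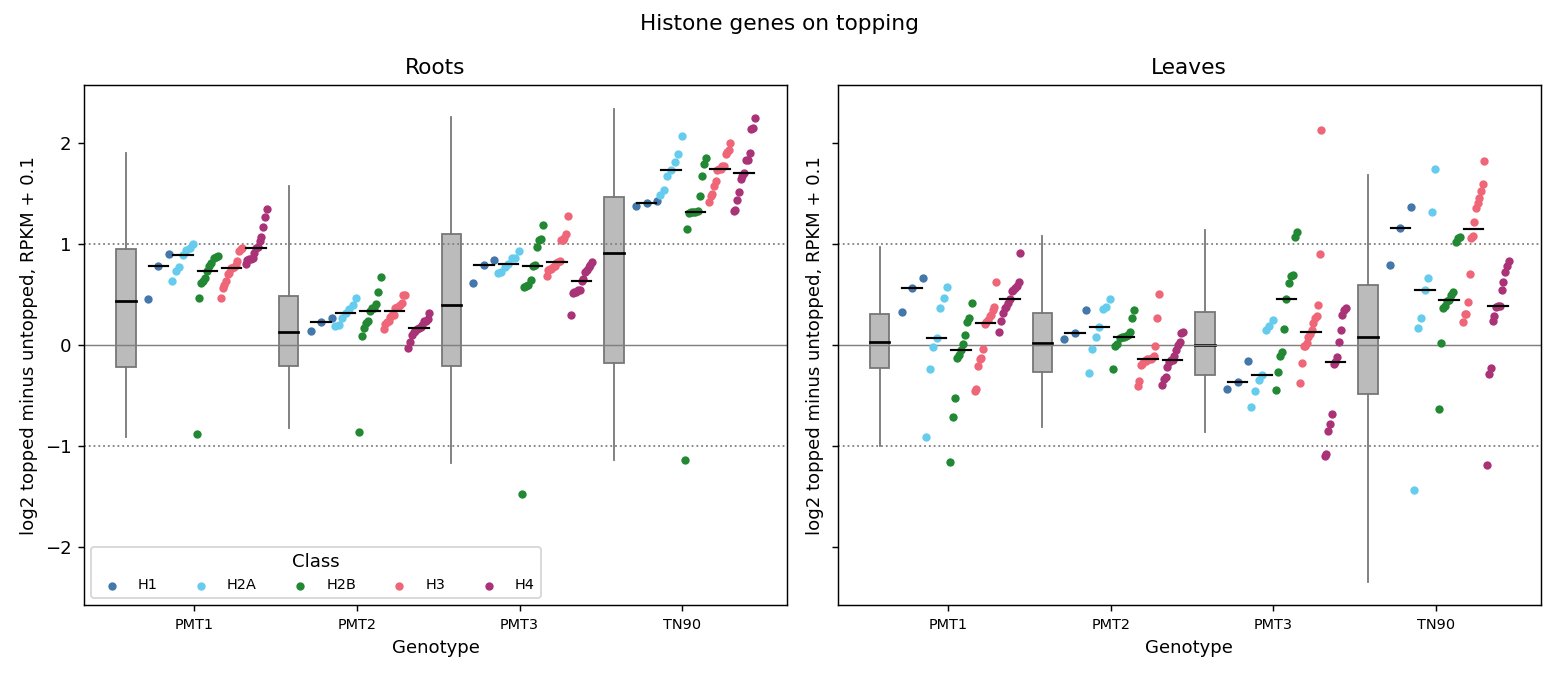
Log2 difference between topped and untopped groups for each histone gene (points, coloured by class, black bars at class medians) in roots and leaves of each genotype. Grey boxes give the interquartile range of all 2075 genes with the median in black, whiskers the 5th to 95th percentile, and dotted lines mark 2-fold. In TN90 roots 47 of 48 genes lie above the upper line.

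The 3 linker histone genes were all well expressed in roots. NITAB075309, the highest, was at 10.2 RPKM in untopped TN90 roots and 26.95 in topped ones, against 15.1 and 20.7 for PMT1, 23.4 and 25.8 for PMT2, and 7.603 and 13.6 for PMT3. NITAB034675 was at 8.23 RPKM in untopped TN90 roots and 21.5 in topped ones, against 13.1 and 22.5 for PMT1, 20.4 and 24.6 for PMT2, and 6.73 and 11.7 for PMT3. NITAB049729, which like NITAB034675 is matched to Arabidopsis H1.2, was at 5.797 RPKM in untopped TN90 roots and 15.7 in topped ones, against 8.53 and 15.99 for PMT1, 14.2 and 16.7 for PMT2, and 4.84 and 7.42 for PMT3. All 3 were higher after topping in each genotype. In TN90 the folds were 2.63, 2.59 and 2.68 in that order, whereas in PMT2 they were 1.101, 1.204 and 1.17.

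H2A, which pairs with H2B, spanned a wider range of levels. NITAB032123, the highest, was at 10.99 RPKM in untopped TN90 roots and 35.3 in topped ones, against 16.3 and 31.6 for PMT1, 31.3 and 38.98 for PMT2, and 10.3 and 18.7 for PMT3. NITAB077963, matched to tomato H2A.1, was at 8.95 RPKM in untopped TN90 roots and 33.5 in topped ones, against 15.1 and 28.9 for PMT1, 30.1 and 36.3 for PMT2, and 8.73 and 15.2 for PMT3. Both were lowest in untopped PMT3 and TN90 roots and highest in topped PMT2 and TN90 roots. NITAB085165 (probable histone H2A.1) was at 10.3 RPKM in untopped TN90 roots and 29.97 in topped ones, against 14.5 and 28.99 for PMT1, 29.8 and 38.1 for PMT2, and 9.605 and 15.8 for PMT3. NITAB026966 had the largest mean topping difference of the class, with 3.704 RPKM in untopped TN90 roots and 15.8 in topped ones, against 7.03 and 13.1 for PMT1, 13.9 and 19.1 for PMT2, and 3.47 and 6.36 for PMT3, which is 4.17-fold in TN90 and 1.37-fold in PMT2. The smallest was that of NITAB058302, at 5.57 RPKM in untopped TN90 roots and 15.7 in topped ones, against 8.78 and 13.6 for PMT1, 22.8 and 25.9 for PMT2, and 4.97 and 8.21 for PMT3. It had the highest ratio of PMT2 to TN90 of the class at both treatments, where the untopped roots were 4.03-fold and the topped roots 1.64-fold above TN90.

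Both remaining H2A genes were at lower levels. NITAB083246 is matched to H2AX, the H2A form that is phosphorylated around DNA double-strand breaks and takes the same place in the nucleosome as canonical H2A. It was at 2.85 RPKM in untopped TN90 roots and 10.2 in topped ones, against 5.06 and 8.66 for PMT1, 9.599 and 12.6 for PMT2, and 2.45 and 4.77 for PMT3. Its topping folds, 3.498 for TN90, 1.699 for PMT1, 1.31 for PMT2 and 1.91 for PMT3, included the largest H2A fold in PMT3, while those in the other genotypes lay within the range of the class. NITAB036928, also matched to tomato H2A.1, was at 1.73 and 5.94 RPKM in untopped and topped TN90 roots.

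Among the 11 H2B genes, 10 were higher after topping in every genotype and 1 was lower in every genotype. NITAB065709, the highest, was at 8.83 RPKM in untopped TN90 roots and 19.7 in topped ones, against 11.1 and 19.1 for PMT1, 21.1 and 23.7 for PMT2, and 7.598 and 11.3 for PMT3. NITAB086479 had the largest mean topping difference of the class, at 3.305 RPKM in untopped TN90 roots and 11.7 in topped ones, against 6.06 and 10.7 for PMT1, 12.4 and 13.1 for PMT2, and 2.83 and 6.57 for PMT3. NITAB008595 was at 5.99 RPKM in untopped TN90 roots and 15.04 in topped ones, against 7.65 and 14.02 for PMT1, 15.8 and 19.9 for PMT2, and 5.301 and 7.96 for PMT3. These 3 genes were all lowest in untopped PMT3 and highest in topped PMT2 roots. NITAB085155, matched to a Medicago probable H2B.1, was at 4.71 RPKM in untopped TN90 roots and 11.8 in topped ones, against 7.305 and 11.2 for PMT1, 11.98 and 15.4 for PMT2, and 5.04 and 7.92 for PMT3. H2B supplied 3 of the 8 members at least 2-fold higher after topping in PMT3, NITAB031958, NITAB048306 and NITAB086479, with folds of 2.06, 2.05 and 2.28.

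NITAB081670 was the exception among all 48. It was at 2.157 RPKM in untopped TN90 roots and 0.923 in topped ones, against 1.56 and 0.799 for PMT1, 1.12 and 0.567 for PMT2, and 1.86 and 0.605 for PMT3, so it was lower after topping in every genotype, by 2.21-fold in TN90, against 1.85 for PMT1, 1.82 for PMT2 and 2.78 for PMT3. It was counted as at least 2-fold lower in PMT3, as were 5.83% of all genes, and in TN90. It was also the only member below TN90 in untopped PMT2 roots, 1.86-fold lower. The gene is the lowest of the 48 in mean root level, has no Swiss-Prot match and is called a histone by its tomato name alone.

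The 14 H3 genes summed to 63.1 and 206 for TN90, 106 and 176 for PMT1, 202 and 253 for PMT2, and 52.5 and 97.5 for PMT3 (RPKM in untopped and topped roots). NITAB004045, the highest, was at 9.99 RPKM in untopped TN90 roots and 28.2 in topped ones, against 13.9 and 23.7 for PMT1, 28.96 and 35.5 for PMT2, and 8.18 and 13.8 for PMT3. NITAB087973 was at 6.75 RPKM in untopped TN90 roots and 25.98 in topped ones, against 13.2 and 22.4 for PMT1, 25.9 and 33.4 for PMT2, and 6.94 and 11.96 for PMT3. Both were far lower in untopped PMT3 and untopped TN90 roots than in untopped PMT2 roots. NITAB022235 had the largest mean topping difference of the class, at 4.06 RPKM in untopped TN90 roots and 13.8 in topped ones, against 6.59 and 12.6 for PMT1, 12.9 and 17.1 for PMT2, and 2.66 and 6.58 for PMT3, and NITAB049407 the smallest, at 6.66 RPKM in untopped TN90 roots and 17.8 in topped ones, against 10.9 and 15.01 for PMT1, 18.04 and 20.1 for PMT2, and 5.32 and 9.01 for PMT3. NITAB059753 was at 4.26 RPKM in untopped TN90 roots and 14.8 in topped ones, against 6.86 and 11.9 for PMT1, 14.2 and 18.3 for PMT2, and 3.33 and 7.25 for PMT3. H3 supplied the other 5 members at least 2-fold higher after topping in PMT3, NITAB022235, NITAB029780, NITAB045025, NITAB052184 and NITAB059753, with folds from 2.05 to 2.42. The 14 genes were close to each other in TN90, where the log2 topping difference ran from 1.41 to 1.99.

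The 13 H4 genes summed to 65.8 and 208 for TN90, 94.9 and 183 for PMT1, 181 and 201 for PMT2, and 57.3 and 86.2 for PMT3. NITAB032113, the highest member of all, was at 19.2 RPKM in untopped TN90 roots and 51.9 in topped ones, against 23.99 and 43.1 for PMT1, 41.6 and 45.3 for PMT2, and 14.8 and 21.6 for PMT3. It made up 22.6 to 29.2% of the H4 sum in the root groups. NITAB024858 had the largest mean topping difference of all members, at 2.22 RPKM in untopped TN90 roots and 10.9 in topped ones, against 4.59 and 11.8 for PMT1, 10.1 and 12.6 for PMT2, and 2.41 and 4.100 for PMT3, which is 2.53-fold in PMT1 and 4.73-fold in TN90. NITAB015404 was at 1.601 RPKM in untopped TN90 roots and 7.44 in topped ones, against 2.76 and 6.33 for PMT1, 6.74 and 7.96 for PMT2, and 1.25 and 2.28 for PMT3. NITAB086429 had the smallest mean topping difference of the class, at 3.22 RPKM in untopped TN90 roots and 8.21 in topped ones, against 3.91 and 7.13 for PMT1, 6.44 and 6.56 for PMT2, and 2.29 and 3.61 for PMT3. All 5 members at least 2-fold higher after topping in PMT1 were H4 genes, namely NITAB004103, NITAB015404, NITAB024858, NITAB026973 and NITAB081377.

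The class medians were ordered differently in the 4 genotypes. The median log2 topping difference of H4 was 1.70 in TN90, against 0.95 for PMT1, 0.17 for PMT2 and 0.63 for PMT3, and that of H3 was 1.74 in TN90, against 0.76 for PMT1, 0.33 for PMT2 and 0.82 for PMT3. H4 thus had the highest class median in PMT1 and the lowest in PMT2 and PMT3. For H2A the medians were 1.73 in TN90, against 0.89 for PMT1, 0.31 for PMT2 and 0.80 for PMT3. For H2B they were 1.31 in TN90, against 0.73 for PMT1, 0.34 for PMT2 and 0.77 for PMT3, and for H1 1.40 in TN90, against 0.78 for PMT1, 0.23 for PMT2 and 0.79 for PMT3, so that H1 and H2B had the lowest medians in TN90. These are medians over genes that share reads, and the differences between classes were not tested.

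Against TN90, nearly all members were higher in untopped PMT2 roots and all were lower in topped PMT3 roots. In untopped roots 46 of 48 members were at least 2-fold higher in PMT2 than in TN90, beside 38.3% of all genes, with a median log2 difference of 1.63 beside 0.72 over the table. The 2 others were NITAB081670 and NITAB086429 (H4), the latter 1.97-fold higher. With centring on the table median, 15 members were at least 2-fold higher, beside 14.1% of all genes. Without centring, 3 members were at least 2-fold higher in PMT1, namely NITAB036964 and NITAB093264 (H3) and NITAB024858 (H4), beside 8.77% of all genes. That count fell to 0 with centring, and for PMT3 it was 0 without it, beside 5.54%. The TN90 column enters all 3 ratios, and the authors' choice of the 2075 genes used comparisons of the PMT lines with untopped and topped TN90.

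The ranking of the 4 genotypes was the same for most members. PMT2 was the highest of the 4 untopped root groups for 47 members, beside 55.4% of all genes. PMT3 was the lowest for 41, beside 41.9%, and TN90 for 6, beside 28.7%. Untopped PMT2 was even above topped PMT1 for 36 members, beside 44.8% of all genes, above topped PMT3 for all 48, beside 58.1%, and above topped TN90 for 14, beside 41.9%.

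In topped roots PMT3 stood apart from the other genotypes. No member was at least 2-fold higher or lower in PMT1 or PMT2 than in TN90. For PMT1 the shares of all genes were 4.14% higher and 6.84% lower, and for PMT2 they were 5.01% and 6.8%. In PMT3 27 members were at least 2-fold lower than in TN90, beside 17.3% of all genes, comprising 12 of 13 H4, 10 of 14 H3, 4 of 7 H2A, 1 of 3 H1 and 0 of 11 H2B genes. The median log2 difference was -1.04 for the members and -0.39 for the table, and with centring 3 members were at least 2-fold lower, beside 8.19% of all genes. The nearest members to the line were both H3, NITAB093264 at 2.02-fold and NITAB080761 at 1.98-fold lower. At 1.5-fold, 46 members were lower, beside 38.1% of all genes.

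PMT3 was the lowest of the 4 topped root groups for 47 members, beside 54.7% of all genes. The highest was PMT2 for 38, beside 33.8%, and TN90 for 10, beside 21.2%. Of these 10, 8 were H4 genes, and the other 2 were the H1 gene NITAB075309 and NITAB081670. Summed over genes, topped PMT3 roots held 0.414 of the H4 RPKM of topped TN90 roots, 0.474 of the H3, 0.491 of the H2A, 0.511 of the H1 and 0.584 of the H2B.

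**Figure D4:**
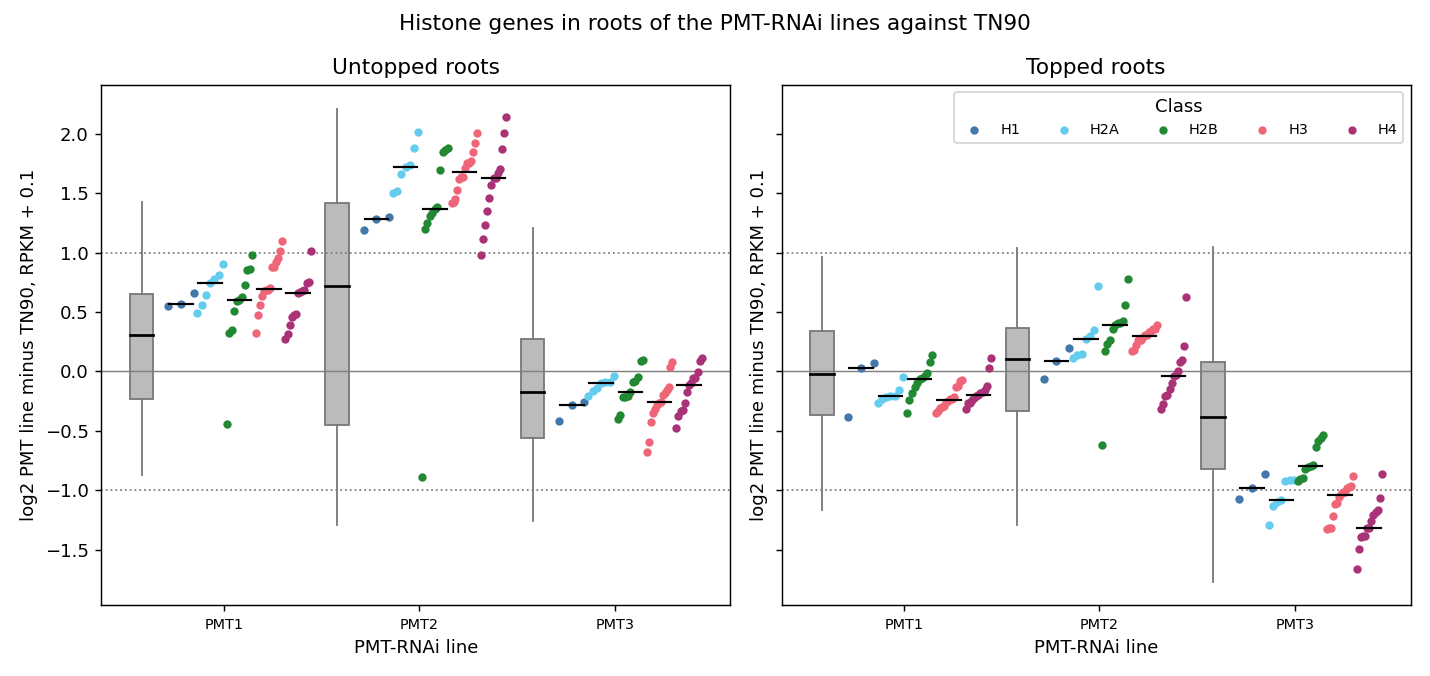
Log2 difference between each PMT line and TN90 for each histone gene in untopped and topped roots (points, coloured by class, black bars at class medians). Grey boxes give the interquartile range of all 2075 genes with the median in black, whiskers the 5th to 95th percentile, and dotted lines mark 2-fold. In untopped PMT2 46 genes lie above the upper line, and in topped PMT3 27 lie below the lower one.

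The root groups also differed in other ways. For 6 plants the labels call the leaf sample topped and the root sample untopped, or the reverse. Such plants gave 2 of the 5 samples in each PMT2 root group and 1 sample in each PMT3 root group. The small treatment difference in PMT2 roots and a mixing of treatments within its groups cannot be told apart from the group means. The 7 alkaloid pathway genes checked (for quinolinate phosphoribosyltransferase, aspartate oxidase, quinolinate synthase and A622) were at least 2-fold higher after topping in each genotype, by 2.14- to 3.85-fold in PMT2 and by 4.81- to 10.7-fold in TN90. Their median in untopped roots was 107 RPKM in PMT2, beside 49.0 in PMT1, 20.0 in PMT3 and 33.4 in TN90. In topped roots it was 296 RPKM in PMT2, beside 199 in PMT1, 143 in PMT3 and 217 in TN90. All 7 were lower in untopped PMT2 than in the topped roots of every genotype. The 47 genes of the table with a mean root level of at least 1000 RPKM summed to 358834 RPKM in untopped PMT3 roots, and to between 165388 and 265983 in the other 7 root groups. The median percent of mapped reads in genes was 79.7 in topped PMT3 roots, the lowest of the root groups, and 92.9 in untopped PMT3, the highest. Median read counts of these PMT3 groups were 53728994 and 118427875. The part of the abundant genes, of mapping and of depth in the histone levels was not tested.

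The RNAi target and the tissue labels were also checked. The 5 putrescine N-methyltransferase genes of the table summed to 90.7 RPKM in untopped and 842 in topped TN90 roots, and to between 28.5 and 86.9 across the 6 root means of PMT1, PMT2 and PMT3. In leaves they summed to between 2.28 and 8.89 RPKM in the 3 lines and to 0.644 and 0.387 in untopped and topped TN90, so in leaves the lines were above TN90. Most of that was NITAB068133, at 2.05 to 8.10 RPKM in leaves of the lines. The 16 leaf marker genes, for light-harvesting and photosystem proteins and the Rubisco small subunit, summed to between 3188 and 4965 RPKM in leaves and to between 105 and 225 in roots, lowest in topped PMT3 roots. The leaf sum came from the abundant ones. In their mean over groups 11 of the 16 were higher in leaves and 5 in roots, and those 5 had leaf means of at most 4.36 RPKM. In bulk tissue, a larger share of dividing cells and more histone transcript per cell cannot be told apart.

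The histone genes of the table were mostly lower in full-grown leaves than in roots, as were most genes of the table. All had been called in roots, so a histone gene that did not differ between root groups would be missing here. Of the 48 members, 36 were at least 2-fold higher in roots than in leaves in all 8 pairs of the same genotype and treatment, beside 62.2% of all genes, which had been selected in roots. For 42 members every root group was above every leaf group, beside 67.6%. The 6 others were NITAB049729 (H1), NITAB085155 (H2B) and the H4 genes NITAB027224, NITAB032113, NITAB048141 and NITAB086429. The mean log2 difference between root and leaf had a median of 3.23 over the members. With centring on the table the median was 0.42, and 11 members were at least 2-fold higher in all 8 pairs, beside 20.9% of all genes.

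The classes were unlike in leaves. Of the 14 H3 genes, 12 stayed below 1 RPKM in every leaf group, and only NITAB059753 was at or above 1 RPKM in each. Of the 13 H4 genes, 7 were at or above 1 RPKM in every leaf group, as were all 3 H1, 3 of 7 H2A and 3 of 11 H2B genes. Altogether 24 members were below 1 RPKM in every leaf group, as were 48.9% of all genes. Of the others, 17 were at or above it in every one, beside 29.7% of all genes, and 7 were on both sides, beside 21.3%. The root level was above the leaf level by a median of 25.9-fold for H3, 7.68-fold for H2B, 5.33-fold for H2A, 4.27-fold for H4 and 3.31-fold for H1, as geometric means over the 8 pairs. Over all genes of the table the median fold, taken pair by pair, ran from 4.58 in untopped PMT3 to 9.34 in topped TN90. H1 and H4 thus lay below that range and H3 above it. These folds are on the RPKM + 0.1 scale, which understates the ratio where leaf values are near or below 0.1 RPKM.

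Of the members most biased to roots in their class, NITAB087973 (H3) lay between 0.115 and 0.788 RPKM in the leaf groups, 38.2-fold below its roots. NITAB077963 (H2A) lay between 0.144 and 1.21 RPKM, 33.6-fold below. NITAB015404 (H4) lay between 0.0163 and 0.0991 RPKM, all below the pseudocount, so no fold is given for it. NITAB008595, the most root-biased H2B gene, lay between 0.2697 and 0.732 RPKM, 20.1-fold below.

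At the other end was the H4 gene NITAB032113. It was at 18.1 RPKM in untopped TN90 leaves and 26.4 in topped ones, against 22.01 and 33.00 for PMT1, 28.8 and 29.5 for PMT2, and 25.2 and 11.8 for PMT3. In untopped PMT3 it was thus higher in leaves than in roots, and over the 8 pairs roots were only 1.28-fold above leaves. It alone made up 43.5 to 55.6% of the H4 sum in the leaf groups. NITAB086429 was at 2.499 RPKM in untopped TN90 leaves and 2.96 in topped ones, against 2.72 and 4.22 for PMT1, 4.299 and 3.97 for PMT2, and 3.37 and 1.51 for PMT3, with roots 1.54-fold above. NITAB085155 (H2B) lay between 4.04 and 5.296 RPKM in leaves, 1.91-fold below its roots.

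**Figure D5:**
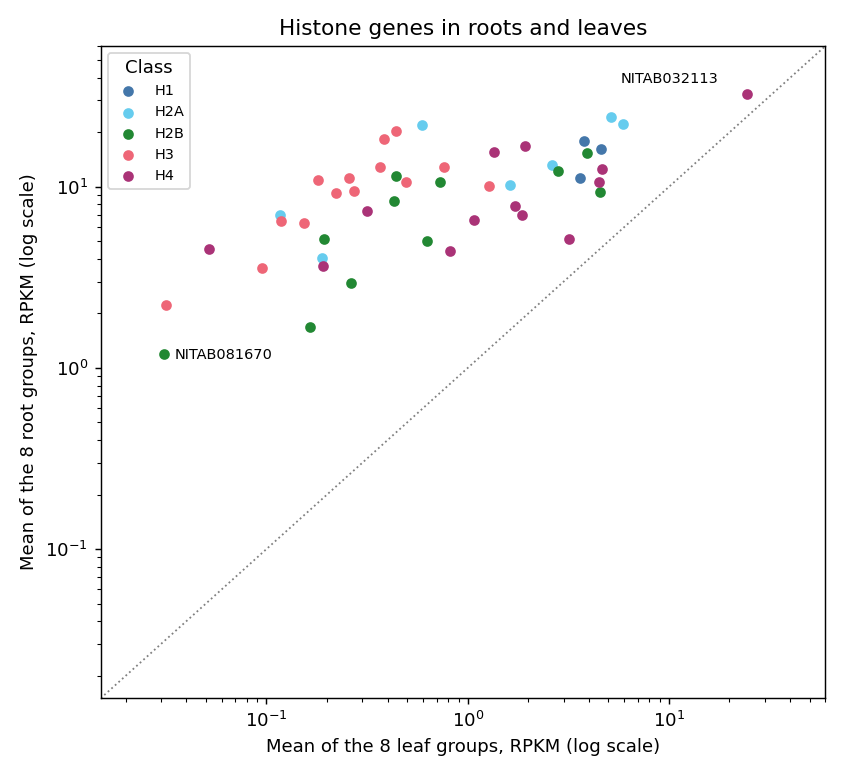
Mean level of each histone gene over the 8 root groups against its mean over the 8 leaf groups (RPKM, both axes log). Points are genes, colours give the class, and the dotted line marks equal levels. All 48 genes lie above the line, the H4 gene NITAB032113 nearest to it, and the H3 genes lie mostly to the left, below 1 RPKM in leaves.

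In leaves few members differed on topping. In TN90 5 members were at least 2-fold higher in topped leaves, beside 7.61% of all genes, and 1 was lower, beside 12.4%. With no RPKM minimum 16 would count as higher, beside 14.3% of all genes. In PMT1 and PMT2 none passed 2-fold in either direction. The shares of all genes were 3.37% higher and 4.05% lower in PMT1, and 2.65% and 1.64% in PMT2. In PMT3 2 members were at least 2-fold lower, beside 1.69% of all genes, and none was higher, beside 4.29%. The plants whose leaf and root labels are opposite gave 2 of 4 untopped and 2 of 5 topped PMT2 leaf samples and 1 of 5 in each PMT3 leaf group. By direction alone, 43 members were higher in topped TN90 leaves, beside 54.1% of all genes. In PMT3 25 were higher and 23 lower, beside 49.5% of all genes in either direction.

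The 5 in TN90 leaves came from 4 classes. The H1 gene NITAB034675 was at 2.299 RPKM in untopped and 6.08 in topped TN90 leaves, and NITAB049729, also H1, was at 2.12 and 4.83. The H2A gene NITAB085165 was at 3.56 and 8.97. The other 2, NITAB031958 (H2B) at 0.4300 and 1.002 and NITAB029780 (H3) at 0.428 and 1.02, only just reached 1 RPKM. The H2A gene NITAB026966 went the other way, at 2.48 and 0.853, although it was 4.17-fold higher in topped TN90 roots. The TN90 topped leaf group has 4 labelled samples and 3 listed libraries.

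The 2 in PMT3 leaves were the H4 genes NITAB032113 and NITAB086429, 2.12- and 2.15-fold lower after topping. Both were higher after topping in PMT3 roots, 1.45- and 1.55-fold. Summed over the 13 H4 genes, leaves held 35.7 and 47.5 for TN90, 40.4 and 61.2 for PMT1, 56.01 and 54.7 for PMT2, and 45.3 and 27.2 for PMT3 (RPKM untopped and topped). The sum was thus lower after topping in PMT3 by more than in PMT2, and higher in PMT1 and TN90. Of the 17 members with at least 1 RPKM in every leaf group, 16 were higher after topping in TN90 leaves, 16 in PMT1, 12 in PMT2 and 3 in PMT3. Of the 617 genes of the table at that level, the shares that were higher were 52.8% for TN90, 51.5% for PMT1, 54.1% for PMT2 and 51.4% for PMT3. These counts are by direction alone and have no minimum fold.

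The root profiles of the members were close to each other. Over the 8 root groups, Pearson's r of log2(RPKM + 0.1) between pairs of the 47 members other than NITAB081670 had a median of 0.98 and lay between 0.82 and 1.00. NITAB081670 had r between -0.80 and -0.62 with the other members. These groups share genotypes, plants' treatments and the scaling of each library, and near-identical copies may share reads, so the values are a description. Many other genes of the table ran with the histones, since 22.4% of the 2027 non-members had r of at least 0.9 with the mean member profile and 12.9% had at least 0.95.

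The 10 non-members with the highest r all had r of at least 0.99. Only 1 of them acts on chromosomes by its name, the DNA topoisomerase 2 gene NITAB049199, which encodes the enzyme that untangles replicated DNA. It was at 2.21 RPKM in untopped TN90 roots and 6.02 in topped ones, against 3.13 and 5.30 for PMT1, 6.12 and 6.83 for PMT2, and 2.09 and 3.20 for PMT3. The gene with the highest r was NITAB057241, named as a non-specific lipid-transfer protein 2, at 13.4 RPKM in untopped and 45.1 in topped TN90 roots. A second lipid-transfer-like gene, NITAB033116, was at 1.74 and 7.56. The others with names were NITAB020699 (early nodulin-like protein 3), NITAB029956 (Sec14p-like phosphatidylinositol transfer protein), NITAB086178 (DUF1635 family), NITAB074493 (ABL interactor-like protein 3), NITAB058500 (polyphenol oxidase B) and NITAB004260 (a probable xyloglucan endotransglucosylase/hydrolase, an enzyme of the cell wall). NITAB045056 carries no name.

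Few other genes of DNA replication and chromatin are in the table. The 4 found by name for replication and deoxynucleotide supply were all at least 2-fold higher in topped TN90 roots and in no other genotype. They are 2 genes for ribonucleoside-diphosphate reductase, which makes deoxynucleotides, NITAB026670 and NITAB052137, and 2 for topoisomerase 2, NITAB049199 and NITAB038790. Their TN90 folds were 2.85, 2.50, 2.65 and 2.03, and in PMT2 they were 1.13, 1.11, 1.11 and 1.00. NITAB038790 is named topoisomerase 2 by Swiss-Prot alone, and its tomato name is transmembrane protein. The 3 genes named as high mobility group proteins, which bind and bend DNA, were unlike each other. NITAB014568 was at 0.897 RPKM in untopped and 3.19 in topped TN90 roots, 3.30-fold higher, while NITAB010425 was at 21.8 and 17.4 and NITAB066396 at 5.78 and 4.79.

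The cell cycle list held 2 genes. NITAB042105, named as the cyclin-dependent kinase inhibitor SMR8, was 2.10-fold higher after topping in TN90 roots, against 1.59 for PMT1, 1.37 for PMT2 and 2.11 for PMT3. For the gene named cyclin-D3-2, NITAB056947, which promotes entry into the cell cycle, the topped-to-untopped ratio was 1.34 in TN90, against 1.28 for PMT1, 0.754 for PMT2 and 0.920 for PMT3. Of the 18 microtubule genes, for tubulins, kinesins and associated proteins, 6 were at least 2-fold higher after topping in TN90, 6 in PMT1, 1 in PMT2 and 1 in PMT3, and none was lower. Of all genes, 45.6% were higher in TN90, against 21.2% for PMT1, 12.2% for PMT2 and 26.5% for PMT3, and the lists of 2 to 18 genes are read beside these shares. The median log2 difference of the microtubule genes was 0.88 in TN90, 0.84 in PMT1, 0.12 in PMT2 and 0.17 in PMT3. For the histones it was 1.67, 0.82, 0.25 and 0.77 in the same order, and over all genes 0.91, 0.43, 0.13 and 0.39. The beta-tubulin gene NITAB012546 was at 10.2 RPKM in untopped and 27.5 in topped TN90 roots. Its fold of 2.69 lay above the microtubule median of 1.84 in TN90. All 4 genes named for cytosolic ribosomal proteins were at least 2-fold higher after topping in TN90, 2 were in PMT2, and 1 each in PMT1 and PMT3. NITAB066809, counted in TN90 and PMT2, was at 0 RPKM in untopped and 1.68 in topped TN90 roots, so its TN90 fold rests on the pseudocount. NITAB018534 is named ribosomal by Swiss-Prot alone, and its tomato name is HR-like lesion-inducing protein.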

How the data were processed

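Stranded total RNA libraries, from which ribosomal RNA is removed, were sequenced as paired-end reads. The authors mapped reads to an N. tabacum genome with the RNA-Seq Analysis tool 2.16 of CLC Genomics Workbench 11.0.1 (similarity and length fraction 0.95, up to 10 hits per read) and deposited the mean RPKM of each group for 2075 genes that they called in roots by an exact test (p at most 0.05, at least 2-fold). The deposited mapping table gives the read count and the percent of mapped reads that lie in genes for 77 libraries. Of these, 6 are for topped PMT2 roots and 3 for topped TN90 leaves, where labels give 5 and 4 samples. Where sample titles and tags disagreed, titles were followed. The tissue tags disagreed with the titles for most PMT3 and TN90 samples, and the descriptions of TN90 samples name PMT1.

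Members and lists were chosen with earlier results of these data known. Log2 differences (pseudocount 0.1 RPKM) were counted at 2-fold and 1 RPKM with Python 3.11.15, numpy 2.4.6, pandas 2.3.3 and matplotlib 3.10.9, and the counting was checked on made-up values. No test was run on group means. Values are given for the member of each class with the highest root mean and those with the largest and smallest mean topping and root-to-leaf differences, for members nearest a threshold, for up to 4 genes per companion list (found by name terms) and for the 10 non-members most like the mean profile. NITAB083246, NITAB036928 and members in counts of 10 or fewer were named after their values were seen. Alternatives were pseudocounts of 0.01 and 1, minimums of 0 and 5 RPKM, 1.5- and 3-fold thresholds, centring on the table median, Swiss-Prot names alone, leaving out a genotype and, added after seeing the data, leaving out NITAB081670.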

Additional observations from a re-analysis of the deposited data

Results flagged for a closer look

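The depth and mapping of the libraries behind the histone means were compared within each group, and 4 libraries stood apart from the rest of their group of 5, by the gap to the nearest library relative to the range. In PMT2 topped leaves 1 library held 508326446 reads, and in PMT3 untopped leaves 1 held 517291516 reads, each the highest of its group. In PMT2 untopped roots, the group in which 46 histone genes were at least 2-fold above TN90, 1 library held 138184962 reads, again the highest of its group. In TN90 untopped leaves 1 library had 97.88% of its mapped reads in genes, the lowest of its group. Chance alone sets apart about 1 in 20 groups by this criterion, and the group means do not show how a single library weighs in them.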

How the results depend on the processing

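No paired analysis was possible because the table holds group means, and for the same reason leaving out replicates in turn was not run. A pseudocount of 0.01, Swiss-Prot names alone and leaving out NITAB081670 kept every value within 1.5 times or 0.58 log2 of the main one. Leaving out each genotype was run for 3 results only, the count higher after topping in all genotypes, the count higher in roots in all pairs and the median root-to-leaf difference, and stayed within the same limits. On topping in roots, members at least 2-fold higher in PMT1 (5) became 2 with a pseudocount of 1 and 0 with centring on the table median, 43 at 1.5-fold and 0 at 3-fold. Those in PMT3 (8) became 1, 0, 39 and 0 in the same order. With a pseudocount of 1, 14.0% of all genes were higher in PMT1 and 18.0% in PMT3. Those in PMT2 (0) became 1 at 1.5-fold, as did those higher in all 4 genotypes (0). In TN90 (47) they became 27 at 3-fold and 6 with centring, and the median log2 difference became 0.76 with centring. Shares of all genes are not given at 3-fold, with a minimum of 5 RPKM or for all 4 genotypes at 1.5-fold. The counts at those settings are therefore not read against the table. Against TN90, the median of untopped PMT2 roots became 0.91 with centring, and its count of 46 became 15 with centring and 26 at 3-fold. The 3 members higher in untopped PMT1 became 0 with a pseudocount of 1, with centring and at 3-fold. They became 1 with a minimum of 5 RPKM and 31 at 1.5-fold. The shares of all genes were 5.06% with a pseudocount of 1, 5.16% with centring and 27.6% at 1.5-fold. The 27 members lower in topped PMT3 became 17 with a pseudocount of 1, beside 11.8% of all genes. They became 46 at 1.5-fold, 1 at 3-fold and 3 with centring. In TN90 leaves the 5 higher members became 16 with no RPKM minimum, 2 with a minimum of 5 RPKM or a pseudocount of 1, 8 at 1.5-fold and 0 at 3-fold. The shares of all genes were 14.3% with no minimum, 5.16% with a pseudocount of 1 and 12.3% at 1.5-fold. Some counts of 0 also moved. With no minimum 3 were higher in PMT3 leaves, beside 6.51% of all genes. At 1.5-fold 3 were higher in PMT1 leaves, beside 6.99%. Against TN90 at 1.5-fold, 3 were higher in topped PMT2 roots, beside 11.9%, and 2 lower in untopped PMT3 roots, beside 20.9%. Between roots and leaves, the 36 members higher in all 8 pairs became 11 with centring, and the median mean log2 difference became 1.95 with a pseudocount of 1 and 0.42 with centring. No direction of a median reversed. Centring removes what the members share with the table, which is itself a selection, and whether that share is biological or from scaling was not tested. Depth cannot be set beside single values, since the table holds no counts.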
